A study of Mus musculus with 8 samples.

Results

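Mast cells are tissue-resident leukocytes that store histamine and proteases in granules and release them when IgE bound to their surface receptor, or a direct agonist, triggers them. Their growth depends on the receptor tyrosine kinase KIT, and in connective tissue they are packed with chymases, tryptases and carboxypeptidase A3. In the esophagus they lie in the submucosa, the muscle coat and the surrounding connective tissue, and they can enter the epithelium in allergic inflammation. The genes described here are 10 of the 49315 genes counted in each library: the granule proteases Cpa3, Mcpt4, Tpsb2, Tpsab1 and Cma1, the receptors Kit, Fcer1a and Mrgprb2, the histamine-forming enzyme gene Hdc and the lineage transcription factor gene Gata2. They were chosen by name from textbook knowledge of mast cells and found by matching Ensembl gene identifiers to mouse symbols, and all 10 matched 1 identifier each.

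RNA of the whole esophagus of mice labelled WT was sequenced at day 14. The SDS group (3 libraries) had received 0.5% of the detergent sodium dodecyl sulfate (SDS) in its drinking water, and the control group (5 libraries) had received untreated water. The labels used here give no strain, sex or age and do not tie libraries to animals, and a p-value therefore reflects the spread among libraries, which may be technical. A lower level in whole tissue can mean fewer cells of a type or less RNA per cell, and these cannot be told apart here.

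Total counts ranged from 22033866 to 29802362 per library, at which 3 counts, taken as the floor of detection, are worth 0.101 to 0.144 CPM (counts per 1000000, with library sizes scaled by the trimmed mean of M-values); this floor covers counting error only. The tissue label fitted the markers: 9 squamous epithelium genes summed to between 43856 and 156295 CPM and 8 striated muscle genes to between 12602 and 35997 CPM, while 9 stomach genes summed to at most 3.50 CPM. The libraries of a group were not alike. The 11 adipocyte markers summed to 6250 CPM in control library 4 and to 246 CPM in control library 3, and SDS library 3 had lower fibroblast (1611 CPM) and striated muscle (12602 CPM) sums than each other library. The results below are therefore given library by library.

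The 4 promoters below belong to the genes on which the results turn: the carboxypeptidase Cpa3, the chymases Mcpt4 and Cma1, whose levels moved together, and Hdc, which departed from them. Each is the 250 bases before the RefSeq start site on GRCm38.p6, the mm10 build of the deposited tables, 5′ to 3′ on the gene's strand. Capitals mark matches to the GATA factor motif, searched on both strands as the word AGATAA or the word AGATAG, and the word TGATAA or the word TGATAG.
Cpa3: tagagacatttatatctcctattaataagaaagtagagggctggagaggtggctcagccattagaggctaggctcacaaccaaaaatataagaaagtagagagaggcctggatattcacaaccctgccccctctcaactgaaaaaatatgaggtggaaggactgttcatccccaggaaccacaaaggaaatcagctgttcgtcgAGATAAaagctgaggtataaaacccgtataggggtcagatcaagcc
Mcpt4: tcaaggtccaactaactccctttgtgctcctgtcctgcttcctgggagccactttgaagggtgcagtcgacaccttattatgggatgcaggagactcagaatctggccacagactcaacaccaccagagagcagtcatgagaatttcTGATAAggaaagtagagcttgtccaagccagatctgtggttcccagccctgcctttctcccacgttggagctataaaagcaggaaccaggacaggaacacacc
Cma1: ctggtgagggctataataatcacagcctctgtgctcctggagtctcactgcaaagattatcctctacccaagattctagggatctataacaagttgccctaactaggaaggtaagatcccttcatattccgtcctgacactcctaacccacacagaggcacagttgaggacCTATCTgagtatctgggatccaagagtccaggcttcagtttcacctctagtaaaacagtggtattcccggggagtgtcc
Hdc: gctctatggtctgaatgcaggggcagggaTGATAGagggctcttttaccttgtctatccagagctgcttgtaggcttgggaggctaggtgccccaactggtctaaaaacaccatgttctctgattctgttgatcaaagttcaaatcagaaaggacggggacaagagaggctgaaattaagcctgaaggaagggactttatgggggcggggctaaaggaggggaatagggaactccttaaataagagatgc
The windows lie at chr3:20242182-20242431, chr14:56062311-56062560, chr14:55944676-55944925 and chr2:126618679-126618928, all for genes on the minus strand. The Hdc window lies inside the gene span of the deposited table, which reaches base 126619299, and held no annotated exon of GENCODE M21. The match begins 46 bases before the start in Cpa3, 103 in Mcpt4, 79 in Cma1 (as the reverse strand word CTATCT) and 221 in Hdc. Of the 10 genes, 8 had a window in the RefSeq promoter table, and in 6 of these 8 it held a match, as did 26.5% of all 32851 windows of this length. Tpsb2 and Tpsab1 had no entry, and the windows of Kit and Gata2 held no match.

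Compared with control, SDS gave no call among these genes. Of the 10, 7 passed the filter on low counts and entered the test, and 0 of the 7 had an adjusted p under 0.05 by edgeR (quasi-likelihood, Benjamini-Hochberg), where 1.05% of the 17179 genes tested did, 0.623% higher and 0.425% lower in SDS. At an unadjusted p under 0.05 there was 1, Hdc, where 18.5% of all genes tested passed. DESeq2 and limma-voom also called 0 of the 7. The group ranges overlapped for all 10, whereas they did not for 13.4% of the genes tested. The median log2 fold change of the 7 was -0.32 and that of all genes tested was -0.005.

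**Figure D1:**
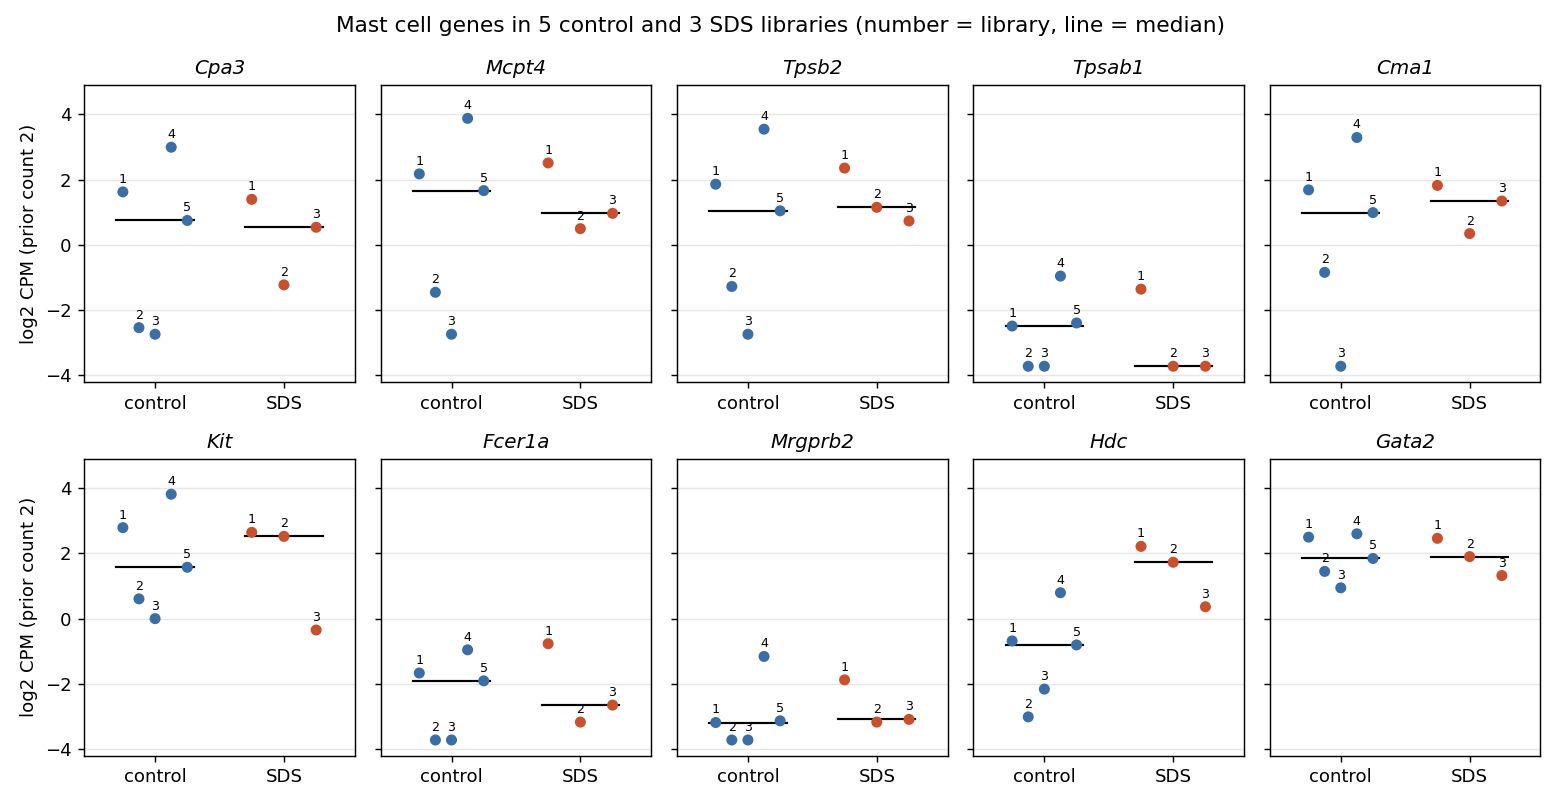
Level of each of the 10 mast cell genes as log2 CPM (prior count 2, vertical axis) in the 5 control libraries (blue) and 3 SDS libraries (orange), numbered by library, with a line at each group's median. Control library 4 is the highest control in every panel, control libraries 2 and 3 are the lowest, and only in the Hdc panel do SDS libraries 1 and 2 lie above all controls.

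Among the granule proteases, Mcpt4 encodes the chymase that is the main one of connective tissue mast cells in mice. It measured 4.44, 0.289, 0.0739, 14.6 and 3.09 CPM in control libraries 1 to 5 and 5.62, 1.34 and 1.88 CPM in SDS libraries 1 to 3. The SDS values all lay inside the control range, since control 4 was above and controls 2 and 3 were below every SDS library. Its log2 fold change was -0.62 ± 1.24 (SE, n = 5 and 3), with a 95% interval from -3.44 to 2.20 (adjusted p = 0.835, edgeR quasi-likelihood with Benjamini-Hochberg adjustment).

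Cma1, the mouse counterpart of the human chymase gene, followed the same libraries, with 3.14, 0.481, 0, 9.70 and 1.91 CPM in the controls and 3.46, 1.19 and 2.46 CPM in SDS. Control 3 had no Cma1 count at all, and control 4 had 287. Cpa3, the carboxypeptidase that shares the granule with the chymases, measured 3.00, 0.0963, 0.0739, 7.87 and 1.60 CPM in controls and 2.55, 0.351 and 1.38 CPM in SDS. Its 2 counts in control 2 and 2 in control 3 lie under the floor. The tryptase Tpsb2, a trypsin-like protease released as a tetramer, measured 3.55, 0.337, 0.0739, 11.6 and 1.98 CPM in controls and 5.03, 2.14 and 1.58 CPM in SDS. Log2 fold changes were -0.37 ± 1.17 for Cma1, -0.84 ± 1.25 for Cpa3 and -0.27 ± 1.16 for Tpsb2 (SE), none past the threshold. The 95% intervals reached from -3.04 to 2.30, from -3.68 to 2.00 and from -2.91 to 2.36, so neither a 4-fold fall nor a 4-fold rise lay outside them.

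The direction of these differences was not stable. Control 4 held 66.4% of all Mcpt4 counts of the control group, 67.5% of those of Tpsb2, 65.4% of those of Cma1 and 63.5% of those of Cpa3. Without control 4 the log2 fold changes were 0.56 for Mcpt4, 0.95 for Tpsb2, 0.76 for Cma1 and 0.23 for Cpa3. All 4 turned from negative to positive, and none passed the threshold (edgeR adjusted p from 0.661 to 0.943 after Benjamini-Hochberg adjustment). With control 4 kept, limma-voom on all 8 libraries also gave positive values: 0.66 for Mcpt4, 0.99 for Tpsb2, 1.21 for Cma1 and 0.22 for Cpa3. Tpsab1, the other tryptase gene, was near the floor, with 3, 0, 0, 13 and 3 counts in the controls and 8, 0 and 0 in SDS; it did not pass the filter.

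**Figure D2:**
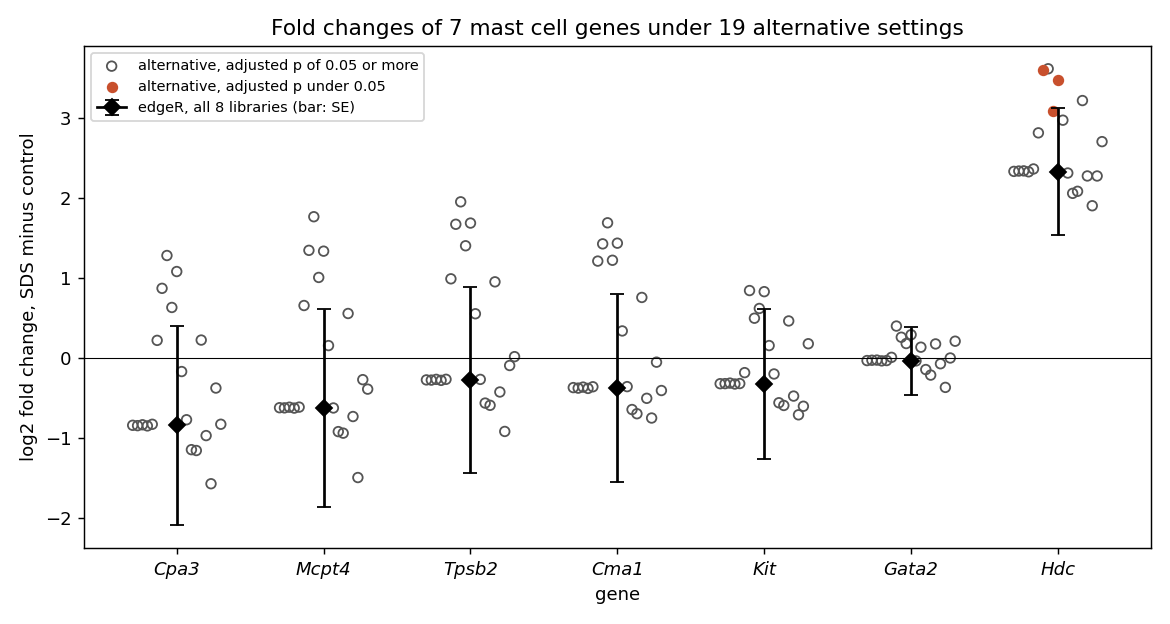
Log2 fold change, SDS minus control, of the 7 genes tested, under edgeR on all 8 libraries (black diamond, bar 1 SE) and under 19 alternative settings (circles, filled where the adjusted p was under 0.05). The circles of the 4 proteases, Kit and Gata2 lie on both sides of 0, and those of Hdc lie between 1.91 and 3.62, with 3 filled.

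Among the libraries with over 200 protease counts, of which 1 was an SDS library, the make-up of these counts changed less than their amount. In the 4 libraries with over 200 protease counts (controls 1, 4 and 5 and SDS 1), Mcpt4 made up 31.2%, 33.0%, 35.5% and 33.1% of the summed counts of the 5 genes and Cma1 22.1%, 21.9%, 21.9% and 20.4%. Tpsb2 made up 24.9%, 26.2%, 22.8% and 29.6% and Cpa3 21.1%, 17.8%, 18.4% and 15.05%, so these shares varied more. The sum itself differed from 8.70 CPM in control 5 to 44.2 CPM in control 4. In SDS 2, with 143 counts, Tpsb2 took 42.7% and Cpa3 7.0%, and in SDS 3, with 175, Cma1 took 33.7%. Control libraries 2 and 3 held 25 and 6 protease counts, too few to read a make-up from. Mcpt4 and Cma1 are paralogs, as are the tryptases. The longest run of bases shared between their longest GENCODE transcripts was 27 for Mcpt4 and Cma1 and 23 for Tpsb2 and Tpsab1, and the counting of reads with several matches is not described in the labels.

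**Figure D3:**
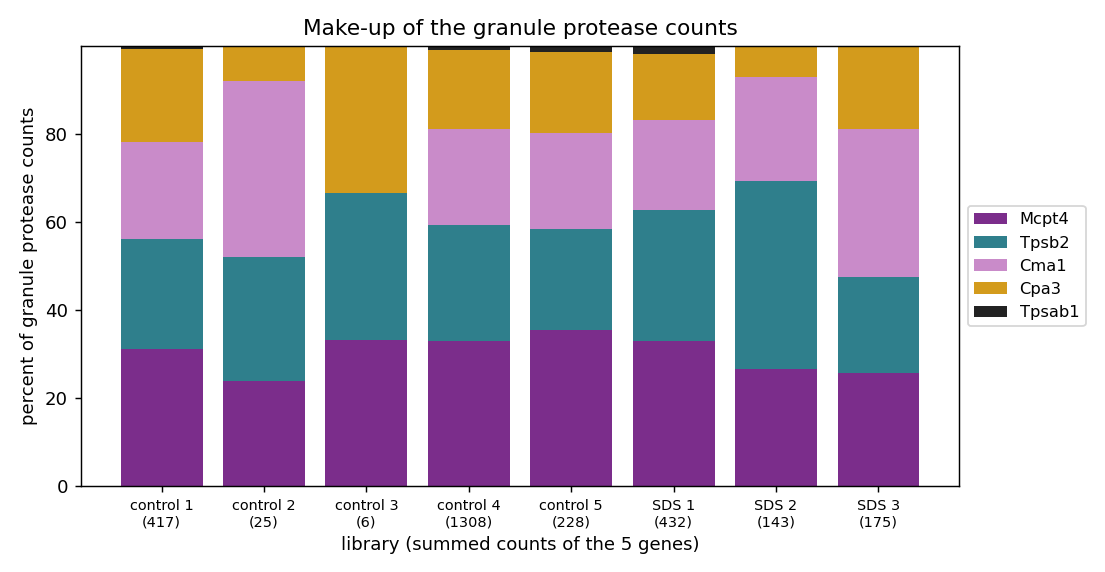
Percent of the summed counts of Mcpt4, Tpsb2, Cma1, Cpa3 and Tpsab1 taken by each gene (stacked bars, vertical axis) in each of the 8 libraries, with the summed counts in brackets. In the 4 libraries with 228 to 1308 counts the Mcpt4 share runs from 31.2% to 35.5% and the Cpa3 share from 15.05% to 21.1%, and the bars of control 2 (25 counts) and control 3 (6 counts) rest on few counts.

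Per length, the order in controls was Mcpt4 (4.54 ± 6.0), Tpsb2 (3.24 ± 4.38), Cma1 (2.84 ± 3.65), Cpa3 (1.67 ± 2.13), Gata2 (0.724 ± 0.334), Kit (0.585 ± 0.607), Fcer1a (0.174 ± 0.184), Hdc (0.0906 ± 0.100), Tpsab1 (0.0627 ± 0.0863) and Mrgprb2 (0.0428 ± 0.0767), as mean RPKM (CPM per kilobase of exon) with SD, n = 5. No neighbours in this order differed by more than the larger of their SDs. Within libraries, each of the first 3 genes exceeded the next in 6, 6 and 7 of 8, Cpa3 exceeded Gata2 in 5, Gata2 exceeded Kit in 7 and Kit exceeded Fcer1a in 7. Fcer1a exceeded Hdc in 3 of 8 libraries only, Hdc exceeded Tpsab1 in 8 and Tpsab1 exceeded Mrgprb2 in 4. In SDS the mean RPKM of Hdc was 0.470 ± 0.264 (SD, n = 3), next to 0.469 ± 0.338 for Kit.

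Among the receptors, Kit, the receptor for stem cell factor, measured 6.83, 1.44, 0.923, 14.0 and 2.90 CPM in control libraries 1 to 5 and 6.17, 5.66 and 0.709 CPM in SDS libraries 1 to 3. SDS 3 was the lowest of all 8 libraries and control 4 the highest, so the groups overlapped throughout. The log2 fold change was -0.32 ± 0.94 (SE), and 0.47 without control 4 and 0.18 without SDS 3, with no call in either. Kit did not keep a fixed ratio to the proteases. SDS 2 had 161 Kit counts beside 143 protease counts, a Kit share of 53.0% of their sum (exact binomial 95% interval 47.2% to 58.7%). SDS 3 had 17 beside 175, or 8.85% (5.24% to 13.8%), and control 4 had 413 beside 1308, or 24.0% (22.0% to 26.1%). These intervals cover counting error only.

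Interstitial cells of Cajal and melanocytes also carry KIT. The 4 Cajal cell markers (Ano1, Etv1, Thbs4 and Gpr20) summed to 137 to 155 CPM in controls and to 111, 170 and 57.3 CPM in SDS libraries 1 to 3. SDS 3 was lowest for these as for Kit. It was also lowest for the summed endothelial (159 CPM), smooth muscle (1929 CPM), fibroblast and striated muscle markers. Among the controls Kit ran from 0.923 to 14.0 CPM. The Cajal sums there were mostly Thbs4 (86.7 to 112 CPM) and Ano1 (37.1 to 48.8 CPM). Etv1 measured 7.34, 3.47, 3.06, 6.89 and 5.38 CPM in control libraries 1 to 5, and Gpr20 0.956, 0.193, 0.295, 1.49 and 0.496 CPM. Etv1 and Gpr20 were lowest in controls 2 and 3, as Kit was, and Thbs4 and Ano1 were not. The 5 melanocyte markers summed to at most 1.88 CPM in any library, and Tyr had 1 count in all. The part of either cell type in the Kit counts was not tested.

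Fcer1a, the IgE-binding chain of the high-affinity IgE receptor, had 7, 0, 0, 13 and 5 counts in the controls and 13, 1 and 2 in SDS. Mrgprb2, the receptor through which basic peptides and some drugs trigger connective tissue mast cells, had 1, 0, 0, 11 and 1 counts in the controls and 5, 1 and 1 in SDS. Both were highest in control 4 and SDS 1 and neither passed the filter on low counts. When all genes with a count were fitted, the log2 fold changes were 0.21 ± 1.08 for Fcer1a, -0.04 ± 1.12 for Mrgprb2 and -0.38 ± 1.35 for Tpsab1 (SE; edgeR adjusted p from 0.914 to 0.989 after Benjamini-Hochberg adjustment). Of the 8 counts, 6 lay at or under 3 for Tpsab1 and for Mrgprb2, and 4 for Fcer1a.

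Gata2, a zinc finger factor that mast cells, blood progenitors and endothelium use, varied least of the 7 genes tested here. It measured 5.56, 2.65, 1.85, 5.98 and 3.51 CPM in controls and 5.42, 3.65 and 2.42 CPM in SDS, with means of 3.91 ± 1.81 (SD, n = 5) and 3.83 ± 1.51 (SD, n = 3). The log2 fold change was -0.03 ± 0.43 (SE), with a 95% interval from -1.0 to 0.94.

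Hdc, the enzyme that makes histamine from histidine, departed from the proteases. It measured 0.546, 0.0481, 0.148, 1.66 and 0.496 CPM in control libraries 1 to 5 and 4.56, 3.23 and 1.21 CPM in SDS libraries 1 to 3. SDS 1 and SDS 2 lay above every control, and SDS 3 lay above 4 of the 5 controls and below control 4. The counts behind these values were 16, 1, 4, 49 and 13 in controls and 116, 92 and 29 in SDS. The log2 fold change was 2.33 ± 0.80 (SE), 5.04-fold, with a 95% interval from 0.52 to 4.15, an unadjusted p of 0.0177 and an adjusted p of 0.167 (edgeR quasi-likelihood with Benjamini-Hochberg adjustment). It therefore did not pass over all genes. Over 19 other settings the log2 fold change ran from 1.91 to 3.62 and the adjusted p from 0.0121 to 0.369. Hdc passed in 3 of them: with the adipocyte level as a covariate (log2 3.10, edgeR adjusted p = 0.0434), with the smooth muscle level as a covariate, a setting chosen after seeing the data (3.48, edgeR adjusted p = 0.0210) and in limma-voom with sample quality weights (3.60, limma adjusted p = 0.0121).

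Set beside the proteases of the same library, Hdc stood higher in SDS than in the well-covered controls. Controls 1, 4 and 5 had 3.84, 3.75 and 5.70 Hdc counts per 100 protease counts. Control 2 had 4.00, from 1 Hdc count beside 25 protease counts. SDS libraries 1, 2 and 3 had 26.9, 64.3 and 16.6. As a share of Hdc and protease counts together, this was 3.70% (exact binomial 95% interval 2.13% to 5.93%), 3.61% (2.68% to 4.75%) and 5.39% (2.90% to 9.05%) in controls 1, 4 and 5. In control 2 it was 3.85%, with a wide interval from 0.0973% to 19.6%. In SDS 1, 2 and 3 it was 21.2% (17.8% to 24.8%), 39.1% (32.9% to 45.7%) and 14.2% (9.73% to 19.8%). Control 3 went against this pattern, with 4 Hdc counts beside 6 protease counts, a share of 40.0% with an interval from 12.2% to 73.8%. The intervals cover counting error only, not the spread between libraries; the ratio was formed after the values were seen, and no test of it was made.

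**Figure D4:**
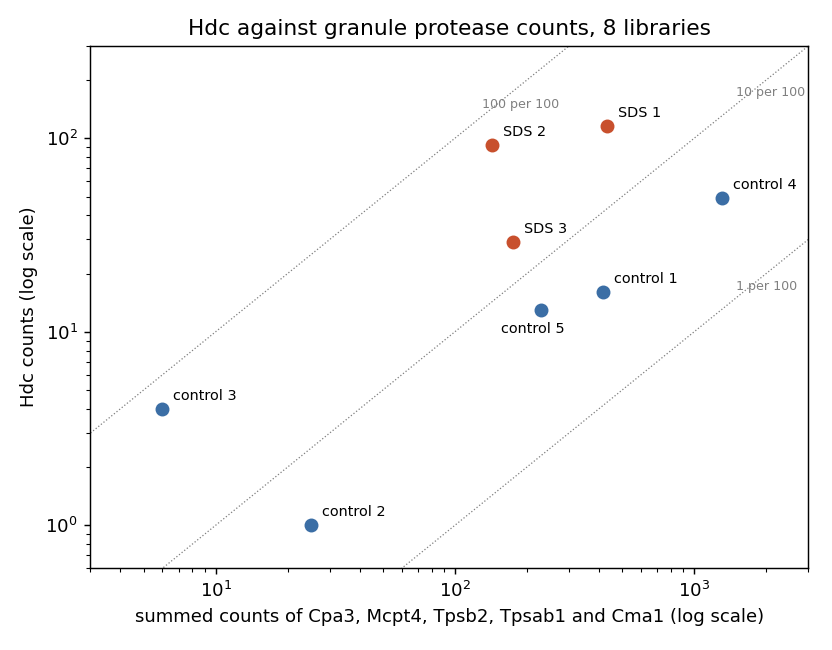
Hdc counts (vertical, log scale) against the summed counts of the 5 granule protease genes (horizontal, log scale) in the 8 libraries, controls in blue and SDS in orange, with dotted lines at 1, 10 and 100 Hdc counts per 100 protease counts. The 3 SDS libraries lie above the line of 10 per 100. Controls 1, 2, 4 and 5 lie below it, control 2 on 1 and 25 counts. Control 3 lies above it on 4 and 6 counts.

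Hdc is also transcribed in basophils and neutrophils. Of the 3 basophil markers, Mcpt8, a basophil protease, had 0 counts in all 8 libraries, and Prss34 and Cd200r3 had at most 4 and 7 counts in any library. The 9 neutrophil markers summed to 48.9 to 60.9 CPM in controls and to 6224, 5902 and 213 CPM in SDS libraries 1 to 3, mostly from S100a8 and S100a9, which keratinocytes also make; 5 of the 9 were tested and 2 rose, S100a8 (edgeR adjusted p = 0.0424) and S100a9 (edgeR adjusted p = 0.024), where 0.623% of all genes tested rose. Csf3r, the granulocyte colony-stimulating factor receptor, measured 22.8, 45.4 and 0.542 CPM in SDS against 0.337 to 0.811 CPM in controls and was not called (edgeR adjusted p = 0.0507). Ly6g, a neutrophil surface marker, had 0 counts in the controls and 1, 3 and 0 in SDS. Hdc was thus high in the same SDS libraries as Csf3r. Over all 8 libraries, Hdc and the neutrophil level had r = 0.78 and rho = 0.83 (exact permutation adjusted p = 0.0668 and 0.0489, over the 35 relations described below). SDS 1 and SDS 2 lay apart from the rest in neutrophil level, so these values lean on 2 libraries. Over the other 6, the relation had r = 0.53 (exact permutation p = 0.292) and rho = 0.60 (exact permutation p = 0.242). The part of neutrophils in the Hdc counts was not tested. Hdc in SDS 3, at 1.21 CPM, was higher than in controls 1, 2, 3 and 5. Of the 5 tested neutrophil markers there, Csf3r, Cxcr2 and Ltf lay within their control ranges. S100a8 (24.7 CPM) and S100a9 (173 CPM) lay above theirs, which reached 8.75 and 46.6 CPM.

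The proteases moved with adipocyte markers and, in part, with smooth muscle and endothelial markers. The mean log2 level of the 11 adipocyte markers, led by the adipokine Cfd and the fatty acid carrier Fabp4, related to Cpa3 over the 8 libraries with a Pearson r of 0.96 (exact permutation p = 0.000347, adjusted p = 0.00412) and a Spearman rho of 0.95 (exact permutation p = 0.00114, adjusted p = 0.00799). For Mcpt4 r was 0.94 (exact permutation adjusted p = 0.00412) and rho 0.98 (0.00694), for Cma1 0.89 (0.00764) and 0.95 (0.00799), and for Tpsb2 0.89 (0.011) and 0.86 (0.0375). All permutation tests were two-sided, and adjustment was over the 35 relations computed, 7 genes with 5 marker lists. Without controls 3 and 4, the libraries farthest from the median adipocyte level, r was 0.90 for Cpa3, 0.85 for Mcpt4, 0.82 for Cma1 and 0.70 for Tpsb2. For Hdc the same relation had r = 0.45 (exact permutation p = 0.262, adjusted p = 0.417) and rho = 0.48 (exact permutation p = 0.243, adjusted p = 0.315), and r was 0.21 without those libraries. With the smooth muscle level Hdc had r = 0.42 and rho = 0.43 (exact permutation adjusted p = 0.441 and 0.349). With the endothelial level it had r = 0.60 and rho = 0.60 (exact permutation adjusted p = 0.202 and 0.193), and r = 0.83 without control 4 and SDS 3. No correlation was computed within the groups of 5 and 3 libraries.

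The 7 smooth muscle markers, led by Des and by the smooth muscle myosin Myh11, gave r = 0.91 and rho = 0.93 with Cpa3 (exact permutation adjusted p = 0.00412 and 0.0112) and r = 0.87 and rho = 0.90 with Mcpt4 (0.0183 and 0.02). For Tpsb2 r was 0.82 and rho 0.79 (exact permutation adjusted p = 0.0346 and 0.0652), and for Cma1 r was 0.76 and rho 0.88 (0.0668 and 0.0282), so each passed on 1 of the 2 measures. Without controls 2 and 4, r was 0.84 for Cpa3, 0.78 for Mcpt4, 0.67 for Tpsb2 and 0.64 for Cma1. Des is also made by striated muscle. The striated muscle and squamous epithelium lists were not among the 5 related. The squamous epithelium sum was lowest in control 4 (43856 CPM), where the protease sum was highest. Among the controls it was highest in control 3 (142850 CPM), where the protease sum was lowest. Among the SDS libraries it was highest in SDS 3 (156295 CPM), while the protease sum was lowest in SDS 2. Kit related to blood endothelium markers, led by Pecam1 and Eng: r was 0.99 and rho 0.98 (exact permutation adjusted p = 0.00174 and 0.00694), and r was 0.98 without control 4 and SDS 3. With the adipocyte level Kit had r = 0.71 and rho = 0.74 (exact permutation adjusted p = 0.0951 and 0.0764). Gata2 had r = 0.94 and rho = 0.95 with endothelium (exact permutation adjusted p = 0.00825 and 0.00799), and 0.95 without control 4 and SDS 3; it also related to the adipocyte (r = 0.86, rho = 0.81; exact permutation adjusted p = 0.0327 and 0.0586) and smooth muscle levels (0.84 and 0.74; 0.0327 and 0.0764). The endothelial level was not related to Kit and Gata2 alone. With it Tpsb2 had r = 0.83 and rho = 0.93 (exact permutation adjusted p = 0.026 and 0.0112) and Mcpt4 r = 0.80 and rho = 0.81 (0.0469 and 0.0586). Cpa3 had 0.73 and 0.79 (exact permutation adjusted p = 0.0924 and 0.0652) and Cma1 0.70 and 0.74 (0.0918 and 0.0764). Without control 4 and SDS 3, r with the endothelial level was 0.94 for Tpsb2, 0.89 for Mcpt4, 0.85 for Cma1 and 0.84 for Cpa3. For the fibroblast level r ran from -0.03 (Cpa3) to 0.67 (Kit) over the 8 libraries, and no relation passed after adjustment. Without SDS 2 and SDS 3, the libraries farthest from its median, r ran from 0.83 (Gata2) to 0.91 (Hdc). The difference between the relations of Kit and of the proteases was not tested, and all values of a library share its scaling.

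**Figure D5:**
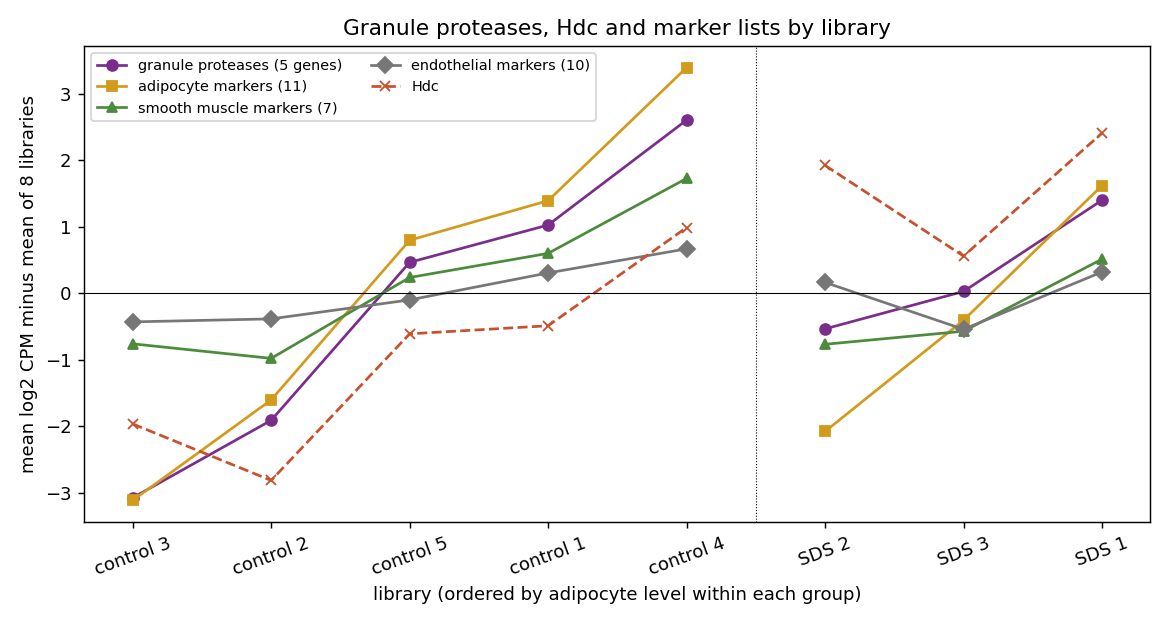
Mean log2 CPM minus the mean of the 8 libraries (vertical axis) for the 5 granule proteases (circles), 11 adipocyte (squares), 7 smooth muscle (triangles) and 10 endothelial (diamonds) markers and for Hdc (crosses), by library, ordered by adipocyte level within each group. The proteases run with the adipocyte and smooth muscle lines in the controls, and Hdc lies below them in controls 1, 4 and 5 and above them in all 3 SDS libraries.

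In summed level the adipocyte markers stood at 1637, 370.0, 246, 6250 and 1010 CPM in control libraries 1 to 5 and at 1856, 236 and 446.0 CPM in SDS libraries 1 to 3. The smooth muscle markers stood at 5065, 3014, 2860, 8076 and 3844 CPM in controls and at 4074, 2456 and 1929 CPM in SDS. None of the 11 adipocyte or 7 smooth muscle genes was called by the edgeR test, where 0 and 1 had an unadjusted p under 0.05; over all genes tested 1.05% were called and 18.5% had such a p. The 4 brown fat markers summed to 82.4 CPM in control 4 and to between 15.3 and 26.1 CPM in the other 7 libraries. With the adipocyte level as a covariate the log2 fold changes were 0.63 ± 0.43 for Cpa3, 1.01 ± 0.45 for Mcpt4, 1.41 ± 0.57 for Tpsb2 and 1.22 ± 0.58 for Cma1 (SE; edgeR adjusted p from 0.214 to 0.443 after Benjamini-Hochberg adjustment). Each SE was smaller than in the fit without the covariate, each sign was positive, and none passed.

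By the root mean square difference of centred log2 CPM over the 8 libraries, the genes outside the list closest to the mean profile of the 4 tested proteases were Wfdc21 (0.43), Slc36a2 (0.45), Acaa1b (0.50), Hoxb5 (0.50), H2-Q10 (0.51), Gm48832 (0.52), Ctcflos (0.56) and Prdm6 (0.57), where the median of all genes tested was 1.94. Of these, Slc36a2 encodes an amino acid transporter of fat, Acaa1b a peroxisomal thiolase, and Hoxb5 and Prdm6 transcription regulators. Slc36a2 measured 19.8, 1.83, 0.369, 61.5 and 13.1 CPM in controls and 22.3, 3.58 and 4.67 CPM in SDS. Of the members outside the mean profile, Kit lay at 1.26, Gata2 at 1.44 and Hdc at 1.47. Over 7 libraries without control 4, 7 of these 8 were again among the closest 8, and Olfr1033 (0.52) took the place of Prdm6.

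Of 20 other mast cell granule, mediator and surface genes, 11 passed the filter and 0 were called (edgeR; 4 had an unadjusted p under 0.05; median log2 fold change 0.27, against -0.005 over all genes tested, of which 1.05% were called and 18.5% had such a p). Mcpt1 and Mcpt2, the chymases of mucosal mast cells, had 14 and 15 counts in SDS 1 and at most 2 and 1 in each other library. Mcpt4 had 143 counts in SDS 1 and 432 in control 4, where Mcpt1 and Mcpt2 had 0 counts each. The longest run of bases shared with Mcpt4 was 46 for Mcpt1 and 33 for Mcpt2. Whether reads were counted for the wrong gene was not tested. Neither Mcpt1 nor Mcpt2 passed the filter, and the counts of both lay mostly in SDS 1. Slc18a2, which loads histamine into granules, stood at 1.85 to 4.27 CPM in controls and 2.14 to 3.38 CPM in SDS (log2 -0.04 ± 0.30, SE). The 4 genes of this list with the smallest p were Hpgds, the prostaglandin D2 synthase (log2 1.78 ± 0.38, adjusted p = 0.0635), Alox5ap (1.59 ± 0.39, adjusted p = 0.087), the granule proteoglycan core Srgn (1.57 ± 0.46, adjusted p = 0.121) and the 5-lipoxygenase Alox5 (0.99 ± 0.34, adjusted p = 0.172), which macrophages and other leukocytes also express (edgeR, SE). Hpgds measured 10.8, 14.3 and 3.88 CPM in SDS against 2.17 to 3.58 CPM in controls, without overlap.

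Of 15 IgE receptor partners and signalling genes, 14 were tested and 0 were called (edgeR; 1.05% of all genes tested were), while 11 had an unadjusted p under 0.05, all higher in SDS, where 18.5% of all genes tested had such a p. The median log2 fold change of the list was 1.09. Ms4a2, the receptor's beta chain and the member most restricted to mast cells and basophils, had 0, 0, 0, 16 and 0 counts in the controls and 3, 3 and 4 in SDS, too few for the filter. The shared gamma chain Fcer1g, used by many myeloid receptors, measured 5.06 to 9.19 CPM in controls and 13.7, 29.4 and 5.80 CPM in SDS. The smallest p belonged to the phosphatase Ptpn6 (log2 1.26 ± 0.30, adjusted p = 0.0809), the adaptor Lat (2.54 ± 0.66, adjusted p = 0.0983), Vav1 (1.69 ± 0.47, adjusted p = 0.113) and the kinase Lyn (1.08 ± 0.30, adjusted p = 0.114; edgeR, SE), all of which other leukocytes carry. Vav1 stood at 10.6 and 19.8 CPM in SDS 1 and 2 and at 3.88 CPM in SDS 3, against 1.97 to 4.73 CPM in controls.

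Of 16 growth factors, alarmins, receptors and lineage factors, 12 were tested and 0 were called (edgeR; 1 higher and 1 lower at an unadjusted p under 0.05, with 1.05% called and 18.5% at such a p over all genes tested; median log2 fold change -0.11). The share of this list with such a p lay near that of all genes. Kitl, the KIT ligand, measured 17.2 to 39.3 CPM in controls and 20.4, 14.2 and 27.8 CPM in SDS (log2 -0.31 ± 0.30, SE). Il33, an epithelial alarmin that acts on mast cells, stood at 61.9 to 170 CPM and at 112, 117 and 164 CPM (0.22 ± 0.29). Its receptor gene Il1rl1 stood at 1.49 to 4.77 CPM and at 3.50, 3.72 and 1.25 CPM (-0.12 ± 0.48). The co-receptor Il1rap had the smallest p (0.56 ± 0.13, edgeR adjusted p = 0.081), with 20.2, 21.3 and 23.8 CPM in SDS above the 12.03 to 16.9 CPM of controls, followed by Stat5b (-0.28 ± 0.11), Il3ra (0.77 ± 0.42) and Crlf2 (0.76 ± 0.45). Il3 had 0 counts in every library.

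On the side of histamine's targets, 3 of 6 genes were tested and 0 were called (edgeR; 1 with an unadjusted p under 0.05, against 1.05% called and 18.5% with such a p over all genes tested). Hrh2, the H2 receptor, measured 0.904, 1.34 and 0.209 CPM in SDS against 0.0739 to 0.507 CPM in controls (log2 1.83 ± 0.66, SE; edgeR adjusted p = 0.185). The H1 receptor Hrh1 had a log2 fold change of -0.07 ± 0.40, and Hnmt, the methyltransferase that inactivates histamine, -0.30 ± 0.61, with 7.10 CPM in control 4 against at most 3.18 CPM in each other library. Aoc1, the diamine oxidase gene, had 0 counts in all 8 libraries.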

How the data were processed

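Values are raw counts per gene, deposited by the authors as 1 table per library for 49315 Ensembl identifiers. The submitters' processing notes name STAR 2.6.1c, Subread and build mm10, beside bcl2fastq and FastQC. Annotation release, strand setting and the handling of multiply matching reads were not given in the sources used here. Per the labels' protocols, RNA was poly(A)-selected; the extraction text speaks of cell pellets, the treatment text of whole esophagus. Symbols matched 48970 identifiers.

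The fit used edgeR 4.0.16 in R 4.3.3, with filterByExpr (minimum count 10, minimum total 15; 17179 genes kept), TMM scaling and a robust quasi-likelihood fit with group as its term, two-sided, with Benjamini-Hochberg adjustment at 0.05. SEs were derived from the fold change and its F statistic. Log2 CPM used a prior count of 2. Alternatives used DESeq2 1.42.0 and limma 3.58.1. The members, lists, rule for named genes and tests were chosen with earlier results of these data known. That rule took all 10 members, the smallest p of 5 related lists, 8 fixed genes and the closest profiles. Csf3r, Cxcr2, Ltf, Ly6g, Tyr, Prss34, Cd200r3, Il3 and Aoc1 were named after their values were seen, as were the single Cajal cell markers. On simulated counts (200 of 16936 genes changed) edgeR found 18% of the 2-fold changes, 76% of the 4-fold changes and 4 unchanged genes. The changed genes were drawn at random from all genes kept. The 4 tested proteases and Kit had log2 SEs of 0.94 to 1.25, and no rate was computed for genes as variable as these. No libraries of a group were copies (chi-square per degree of freedom at least 24.1).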

Additional observations from a re-analysis of the deposited data

Results flagged for a closer look

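Within the control group, control library 4 stood far from the other 4 libraries for 2 of the 10 genes. For Mrgprb2 it measured 0.372 CPM, and its gap to the nearest control was 0.897 of the range of the 5 controls, above the critical value of 0.710. For Tpsab1 it measured 0.439 CPM, with a gap of 0.740 of the range. Behind these values stand 11 counts of Mrgprb2 and 13 of Tpsab1. Chance alone places about 1 in 20 groups of normally distributed values past this limit, and the rate for counts this low was not computed. The 10 genes share the same libraries, and control 4 was the highest control for each of them. The SDS group, with 3 libraries, was not examined in this way.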

How the results depend on the processing

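The number of genes called in all moved with the setting. It was 180 in edgeR, 1599 in DESeq2, 1949 in limma-voom with quality weights, 382 with the adipocyte and 396 with the smooth muscle covariate (the latter chosen after seeing the data), and 3 without controls 3 and 4, where fewer libraries were fitted; leaving out 1 library gave 4 (without control 1 or SDS 2) to 1222 (without SDS 3). The same numbers in 2 groups do not pair libraries by the labels: same-numbered libraries deviated together with r = 0.31, -0.01 and 0.31, and not every library correlated best with its own number. With the replicate number as a block 0 genes were called, and the median of the 7 genes was 1.69. Only the controls have replicates 4 and 5, so in that fit these 2 libraries did not inform the difference between the groups. Of the 7, 1 (Hdc) was called with quality weights and with either covariate, and 0 in each leave-one-out fit.

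Signs turned positive as follows (log2 fold change; the cause was not tested). Cpa3 had 0.22 in limma-voom, 0.87 with quality weights, 1.28 with the block, 0.63 with the adipocyte and 1.08 with the smooth muscle covariate. In the same order Mcpt4 had 0.66, 1.35, 1.77, 1.01 and 1.34, Tpsb2 0.99, 1.67, 1.96, 1.41 and 1.69, and Cma1 1.21, 1.43, 1.69, 1.22 and 1.44. Kit had 0.85 with quality weights, 0.50 with the block, 0.62 and 0.83 with the covariates, and Gata2 0.011 in limma-voom, then 0.40, 0.26, 0.18 and 0.29. Without controls 3 and 4 together Mcpt4 had 0.16, Tpsb2 0.56, Cma1 0.34 and Kit 0.16. Leaving out 1 library gave -1.57 to 0.23 for Cpa3, -1.49 to 0.56 for Mcpt4, -0.92 to 0.95 for Tpsb2, -0.75 to 0.76 for Cma1, -0.71 to 0.47 for Kit, -0.36 to 0.21 for Gata2, 1.91 to 3.22 for Hdc and -0.75 to 0.56 for their median. Hdc stayed positive in each of the 19 settings.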
